A study of Homo sapiens with 30 samples.

Results

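The genes POLH, POLK, POLI, REV1, REV3L and RAD18 of translesion DNA synthesis were followed by RNA-seq in H1299 cells, a human lung carcinoma line that lacks p53. The 6 genes were picked by name, as those whose Ensembl identifiers map to these symbols. The rule used no values, but it was set with earlier results of these data known. The members are 6 of the 39359 genes in the count table, and all 6 were among the 21335 genes that passed the filter on low counts.

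The study asked what becomes of p53-driven transcription when RNA polymerase misreads a lesion in the p53 gene, termed transcriptional mutagenesis (TM). All cells were transiently transfected with plasmids that lack a mammalian replication origin and carry TRE-tight promoters, and GFP-positive cells were sorted at 6 h or 24 h. Control cells received pGFP, which expresses GFP only, and the other cells received vectors that also express wild type p53, RW mutant p53 (arginine to tryptophan at codon 248) or p53 O6-meG, in which O6-methylguanine lies on the template strand of codon 248. Cells with p53 TM received the O6-meG vector and 10 µM O6-benzylguanine (O6-bzG), which inactivates the repair protein AGT. The O6-bzG was given in no other group, so p53 TM differs from wild type p53 by both lesion and drug. Each of the 10 groups was labelled as biological triplicates of this 1 cell line, and p-values measure only the spread between these samples. Titles of 2 libraries at 6 h name p53 O6-meG in one place and p53 TM in another, so these were placed in no group, which left n = 2 for p53 O6-meG and for p53 TM at 6 h.

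Translesion synthesis lets a replication fork pass a damaged base by swapping the replicative polymerase for one with an open active site. RAD18, a ubiquitin ligase, marks the sliding clamp PCNA at stalled forks, and the marked clamp recruits the inserting polymerases eta (POLH), kappa (POLK), iota (POLI) and REV1. REV3L, the catalytic subunit of polymerase zeta, then extends the distorted primer end, and inherited loss of POLH causes the variant form of xeroderma pigmentosum.

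The counts of all genes summed to between 32302699 and 71950532 in a library (median 44424643). CDKN1A, the cell cycle inhibitor and p53 target, was 39.99 ± 5.17 CPM (counts scaled by TMM library size; SD, n = 3) in pGFP and 255 ± 11.1 CPM (n = 3) with wild type p53 at 6 h. The lowest count of any of the 6 genes in a grouped library was 390 (POLI), and at this depth none was close to absent.

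Levels between the genes can be set side by side only per length, and were divided here by the summed exon length of each gene. In pGFP cells at 6 h the order was REV3L at 8.47 ± 0.453 CPM per kb (SD, n = 3), RAD18 at 8.17 ± 0.435, REV1 at 6.01 ± 0.0457, POLH at 5.91 ± 0.193, POLI at 2.15 ± 0.0758 and POLK at 1.90 ± 0.121. REV3L and RAD18 did not differ beyond their spread, nor did REV1 and POLH. With wild type p53 at 6 h POLH stood at 25.2 ± 1.65 CPM per kb (n = 3). The exon length counts every annotated isoform, so a gene with long unused exons appears lower than it is.

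POLH encodes DNA polymerase eta, which copies past ultraviolet-induced thymine dimers. It was the member that rose with p53. Its gene (ENSG00000170734.11) lies at chr6:43576185-43620523 of hg38 on the plus strand. The promoter is shown because POLH shares it with XPO5, which exports microRNA precursors from the nucleus and starts 147 bases away on the opposite strand. In the RefSeq sequence of chr6:43575935-43576234 (GRCh38.p14, plus strand), capitals mark the stretch from the XPO5 start to the POLH start.
POLH promoter: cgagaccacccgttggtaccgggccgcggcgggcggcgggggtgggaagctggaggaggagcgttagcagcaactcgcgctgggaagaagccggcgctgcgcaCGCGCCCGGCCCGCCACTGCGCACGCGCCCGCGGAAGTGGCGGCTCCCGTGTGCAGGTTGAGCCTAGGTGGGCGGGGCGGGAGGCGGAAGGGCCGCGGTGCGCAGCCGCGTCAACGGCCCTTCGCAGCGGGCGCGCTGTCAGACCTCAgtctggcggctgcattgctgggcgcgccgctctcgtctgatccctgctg

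The p53 protein binds pairs of a short palindromic decamer, whose consensus was searched in hg38 within 5000 bases of each gene's start (both strands, as the decamer is its own reverse complement). No RefSeq promoter of the 6 genes, in windows of 300 bases, held an exact decamer, against 6.63% of all 35116 promoters. In the wider window POLH held 8 exact decamers, and 0.656% of the 14471 tested protein-coding genes held as many or more. One and the same decamer occurred at −4581, −2421 and 2001 bases from the POLH start. Repeated sequence was not masked in any gene, so such copies were counted separately. REV1 held 4 (26.1% of genes held as many or more), REV3L and RAD18 held 3 (47%), POLK held 2 (72.1%) and POLI held 1 (91.7%). The best pair of decamers in each gene, with both 4-base cores intact and at most 1 base between them, is shown to compare the members, with the cores in capitals. Each is written 5′ to 3′ on the gene's own strand.
POLH at chr6:43579505-43579524, plus strand: gggCATGccttgcCATGtgt
POLK at chr5:75510202-75510222, plus strand: ctgCTAGctccagcCATGtct
POLI at chr18:54265316-54265336, plus strand: aggCTAGttgggagCAAGgtg
REV1 at chr2:99491426-99491445, minus strand: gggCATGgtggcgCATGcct
REV3L at chr6:111486122-111486141, minus strand: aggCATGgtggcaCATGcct
RAD18 at chr3:8963553-8963573, minus strand: gcgCATGcgcagtaCAAGccc
Each pair matched the consensus at 17 of 20 letters, and 39.4% of the tested protein-coding genes held a pair that matched as well or better. By this measure POLH was level with the other members. These are matches of letters, and binding was not measured in these data.

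At 6 h POLH was at 50.2, 47.6 and 50.6 CPM in the 3 pGFP libraries and at 207, 199 and 226 CPM with wild type p53. All 3 wild type p53 libraries lay about 4 times above every pGFP library, with no overlap. The log2 fold change was 2.09 (SE 0.19, 95% interval 1.70 to 2.48), or 4.25-fold, and the adjusted P was 9.2e-09 (quasi-likelihood test of edgeR, Benjamini-Hochberg adjustment over all 21335 genes). In sorted cells analysed in bulk, more POLH RNA per cell and more cells expressing it cannot be told apart. POLH was the 1 member of 6 called in this comparison, in which 10.3% of all tested genes were called (adjusted P under 0.05).

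RW mutant p53 left POLH at 52.6, 49.7 and 56.1 CPM at 6 h, overlapping pGFP (log2 fold change 0.09, 95% interval −0.29 to 0.47). With p53 O6-meG and AGT active, POLH was at 203 and 190 CPM in the 2 libraries, within the range of wild type p53 or slightly below it. The fold change of p53 O6-meG against pGFP was 1.99 on the log2 scale (SE 0.20, edgeR adjusted P 1.5e-07), and POLH was again the 1 member called, where 4.85% of all genes were. Against wild type p53 the difference was −0.10 (95% interval −0.51 to 0.32), and edgeR called 0 of all tested genes (0%) and none of the members in that comparison, with 2131 genes and none of the members at an unadjusted p under 0.05, while DESeq2 called 35 genes and none of the members.

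With p53 TM at 6 h POLH was at 61.0 and 74.8 CPM. Both libraries lay above the 3 pGFP libraries and far below the wild type p53 libraries. Against pGFP the log2 fold change was 0.46 (SE 0.20, edgeR unadjusted p 0.034), which did not pass after adjustment (edgeR adjusted P 0.8). None of the 6 members was called, where 0.202% of all genes were. In that comparison 1 member and 1275 of all genes had an unadjusted p under 0.05. DESeq2 called no member there, and 103 of all genes. Against wild type p53 POLH was 3.10-fold lower with p53 TM (log2 difference −1.63, SE 0.21, edgeR adjusted P 6.5e-06), in a comparison that called 10.9% of genes. Against p53 O6-meG, which shares the vector but not the O6-bzG, it was 2.89-fold lower (log2 difference −1.53, SE 0.23, edgeR adjusted P 8e-05), where 4.1% of genes were called. These contrasts rest on 2 libraries of p53 TM, and the pair of libraries with conflicting titles bears on them directly. POLH was at 67.1 CPM in the library titled p53 TM first and p53 O6-meG in parentheses, and at 199 CPM in the library titled the other way. The count table heads each of these libraries with the first part of its title. CDKN1A was at 50.2 and 250 CPM in them, in the same order, beside 65.9 and 57.9 CPM in p53 TM and 269 and 261 CPM in p53 O6-meG at 6 h. MDM2, the ubiquitin ligase that degrades p53, was at 301 and 1179 CPM in them, beside 286 and 349 CPM in p53 TM and 1155 and 972 CPM in p53 O6-meG. Placing both by the first part of their titles gave −1.64 against wild type p53 (edgeR adjusted P 1.1e-07), and placing both by the parentheses gave −0.91 (edgeR adjusted P 0.16), which ended the call.

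At 24 h the pGFP libraries gave 61.1, 46.9 and 48.4 CPM of POLH and the wild type p53 libraries 228, 165 and 146 CPM. The groups did not overlap, and replicate 1 was the highest within both. The log2 fold change was 1.79 (SE 0.19, 95% interval 1.40 to 2.17, edgeR adjusted P 3.2e-08). RW mutant p53 gave 59.7, 48.6 and 42.0 CPM, overlapping pGFP, with a log2 fold change of −0.06 (95% interval −0.44 to 0.32). None of the 6 members was called for RW mutant p53 by edgeR at 6 h or at 24 h, each time against 0.00469% of all genes. No member had an unadjusted p under 0.05, where 218 of all genes did at 6 h and 208 at 24 h. DESeq2 called no member and 1 gene each time.

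With p53 O6-meG at 24 h POLH was at 271, 186 and 167 CPM and with p53 TM at 231, 153 and 136 CPM. All 6 libraries lay above every pGFP library, and each group overlapped wild type p53. Against pGFP the log2 fold change was 2.00 for p53 O6-meG (SE 0.19, edgeR adjusted P 7.5e-09) and 1.73 for p53 TM (SE 0.19, 95% interval 1.35 to 2.12, edgeR adjusted P 2.8e-07). POLH was the 1 member called for p53 TM, in which 10.7% of all genes were called. Between p53 TM and wild type p53 the log2 difference was −0.05, with a 95% interval from −0.43 to 0.32. No member was called between p53 O6-meG and wild type p53, where edgeR called 0.00937% of all genes. No member had an unadjusted p under 0.05 there, where 1058 of all genes did. DESeq2 called no member and 10 genes.

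**Figure D1:**
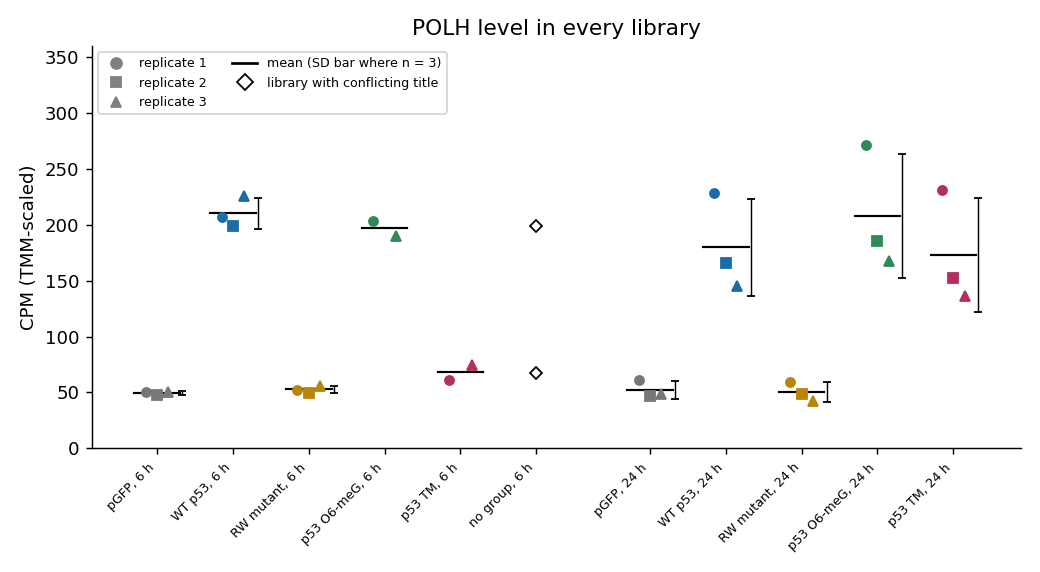
POLH level in every library, in TMM-scaled CPM (vertical axis), for the 5 vectors or treatments at 6 h and 24 h. Symbols give the replicate number, lines the group mean and bars the SD where n = 3, and open diamonds are the 2 libraries in no group; p53 TM lies near pGFP at 6 h (61.0 and 74.8 CPM) and among the wild type p53 values at 24 h (136 to 231 CPM).

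Replicate 1 held the highest POLH level in each of the 5 groups at 24 h, pGFP and RW mutant p53 included. It also had the lowest total count of its group in 5 of 5 groups, between 32302699 and 38996822. The part of depth in this was not tested. Libraries of the same number deviated together at 24 h, so the comparison paired by replicate number was also read there. With replicate 1 of all groups left out, POLH with p53 TM at 24 h was 1.55 above pGFP on the log2 scale (edgeR adjusted P 3.9e-10).

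Of the comparisons of POLH within 24 h, the paired reading changed that of p53 TM with p53 O6-meG. In same-numbered libraries at 24 h the ratio of p53 TM to p53 O6-meG was 0.852, 0.821 and 0.812. All 3 lay below 1, although the unpaired groups overlapped. Without pairing the log2 difference was −0.27 (SE 0.18, 95% interval −0.64 to 0.11, edgeR adjusted P 0.42), and no member was called where 10% of genes were. No member had an unadjusted p under 0.05, where 4979 of all genes did. DESeq2 called no member and 2548 genes. With the replicate block the difference was −0.27 (SE 0.07, edgeR adjusted P 0.003), where 25.3% of genes were called. The ratio of p53 O6-meG to wild type p53 was 1.19, 1.12 and 1.15 in the same libraries, and that difference was not called with the block (edgeR adjusted P 0.15).

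The change of the p53 TM effect between the times was tested directly, in contrasts added after the values had been seen. The effect of p53 TM on POLH over pGFP was larger at 24 h than at 6 h by 1.27 on the log2 scale (SE 0.28, edgeR adjusted P 0.0089), where 3.1% of all genes were called. The difference of p53 TM from wild type p53 narrowed by 1.58 (SE 0.28, edgeR adjusted P 0.0016), against 1.45% of all genes called, and the difference from p53 O6-meG narrowed by 1.27 (SE 0.29, edgeR adjusted P 0.038), against 0.511%. POLH was the 1 member called in each of the 3 contrasts. The first lost its call without p53 TM replicate 1 at 6 h (1.13, edgeR adjusted P 0.091), and the last lost it in 7 of the fits that left out 1 library, up to an edgeR adjusted P of 0.28. With both libraries of conflicting title placed by their parentheses the 3 values were 0.56, 0.86 and 0.19, and none was called. The change of the wild type p53 effect was −0.30 (SE 0.26, edgeR adjusted P 0.62) and that of the p53 O6-meG effect 0.01 (SE 0.27, edgeR adjusted P 1). Without pairing neither of these called a member, where 6.51% and 6.31% of all genes were called. In each 1 member (RAD18) had an unadjusted p under 0.05, where 3955 and 3963 of all genes did. DESeq2 called no member and 1914 genes in the first, and 1 member (RAD18) among 1843 genes in the second. With the replicate block within each time, POLH was called in the first (−0.32, SE 0.09, edgeR adjusted P 0.017), where 18.3% of all genes were called. RAD18 was called in both with that block (−0.35, edgeR adjusted P 0.0049, and −0.42, edgeR adjusted P 0.0019), where 18.4% of all genes were called in the other. Pairing by number was clear at 24 h and weaker at 6 h, and these contrasts use both times.

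The rise of POLH was set beside that of the other genes raised at least 2-fold by wild type p53, 937 at 6 h and 1967 at 24 h, as the rise over pGFP in percent of the wild type p53 rise. All of these shares use the same pGFP and wild type p53 libraries. The genes were also picked by the wild type p53 rise that divides their shares, which can make the shares of noisy genes too low. The shares and their medians are therefore given only as a description. At 6 h p53 TM kept 11.5% of the POLH rise (7.17% and 15.7% in its 2 libraries), where the median over the 937 genes was 0.624%. p53 O6-meG kept 91.5% at that time, against a median of 53.8%. At 24 h p53 TM reached 94.9% of the wild type p53 rise for POLH, against a median of 33.8% over the 1967 genes. Of these, 52 genes had a higher share than POLH. The corresponding share was 55.0% for CDKN1A and 89.1% for MDM2. The 3 p53 TM libraries gave 140%, 78.7% and 65.7% against the group means, and 102%, 89.1% and 90.0% against the pGFP and wild type p53 libraries of their own number. With both libraries of conflicting title placed by their parentheses the 6 h share of p53 TM was 38.6%.

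**Figure D2:**
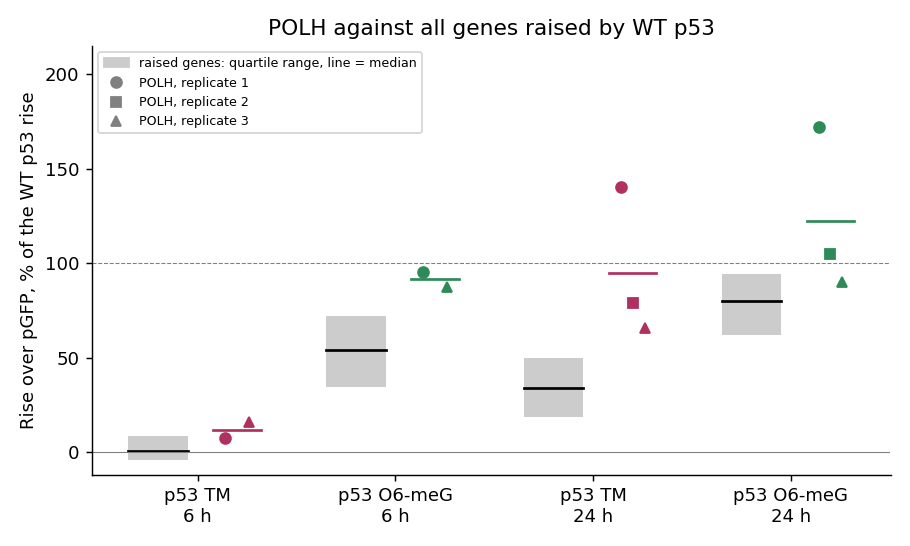
Rise over pGFP in percent of the wild type p53 rise (vertical axis) for p53 TM and p53 O6-meG at both times. Grey boxes span the quartiles of all genes raised at least 2-fold by wild type p53, with the median as a line. Coloured symbols are POLH in each library with its group value as a line. At 24 h POLH with p53 TM was at 94.9% and the median at 33.8%, over genes picked by the same wild type p53 rise.

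Among the genes raised at least 2-fold by wild type p53, POLH was not extreme, since 466 of the 937 at 6 h and 1006 of the 1967 at 24 h changed more. Over all tested genes its log2 fold change with wild type p53 lay at percentile 97.4 at 6 h and 95.2 at 24 h. The genes whose log2 CPM ran most like that of POLH across the 28 grouped libraries were SESN1 (Pearson r 0.988), ACER2 (0.987), ENSG00000260912 (0.987), ZNF440 (0.984) and FAS (0.981). The points share their libraries and fall largely into p53-active and inactive sets, so these values are a description. SESN1, a sestrin that restrains mTOR, had log2 fold changes of 3.04 at 6 h and 2.53 at 24 h with wild type p53, and p53 TM gave 0.89 and 2.41. FAS, a death receptor, had 2.32 and 2.44 with wild type p53, and p53 TM gave 0.36 and 2.26.

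No rise was called in the tested neighbours of POLH on the opposite strand. XPO5, across the shared promoter, had log2 fold changes with wild type p53 of 0.04 (SE 0.12) at 6 h and 0.03 (SE 0.12) at 24 h, neither called. GTPBP2, a GTP-binding protein gene whose exons overlap those of POLH by 261 bases, fell by 0.51 at 6 h (edgeR adjusted P 0.0069) and by 0.89 at 24 h (edgeR adjusted P 4.4e-06). Whether reads were counted by strand is not given in the sources used here, so reads from the overlap cannot be assigned with certainty.

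RAD18, the ligase that starts the pathway, was the member with the clearest fall. Its gene (ENSG00000070950.9) lies at chr3:8775402-8963773 on the minus strand. In pGFP cells RAD18 was at 59.9, 53.9 and 57.3 CPM at 6 h and at 33.6, 40.0 and 36.3 CPM at 24 h. The times did not overlap, and the log2 difference was −0.64 (SE 0.10, edgeR adjusted P 1.2e-05). POLI fell by 0.49 in the same cells (SE 0.09, edgeR adjusted P 9.8e-05) and POLK by 0.29 (SE 0.07, edgeR adjusted P 0.0024), so that 3 of 6 members fell with time where 22.3% of all genes fell and 41.2% changed in either direction. POLH, REV1 and REV3L were not called between the times.

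Wild type p53 at 24 h took RAD18 to 24.3, 29.3 and 31.2 CPM, below all 3 pGFP libraries. The log2 fold change was −0.38 (SE 0.10, 95% interval −0.58 to −0.17, edgeR adjusted P 0.0037), and in same-numbered libraries the ratio was 0.722, 0.734 and 0.857. This call held in every alternative and with each library left out, with edgeR adjusted P values up to 0.032. At 6 h RAD18 had been at 57.2, 57.2 and 52.999 CPM with wild type p53, overlapping pGFP (log2 fold change −0.03, 95% interval −0.23 to 0.17). The difference between the times was −0.34 (SE 0.14, edgeR adjusted P 0.15) without pairing. RW mutant p53 gave 35.6, 41.3 and 37.3 CPM at 24 h, overlapping pGFP. With p53 O6-meG RAD18 was at 26.9, 31.0 and 32.9 CPM at 24 h, all below pGFP (log2 fold change −0.28, SE 0.10, edgeR adjusted P 0.036). That call was lost in 4 of the fits without 1 library, up to 0.18 without p53 O6-meG replicate 1. With the replicate block the value was −0.28 (SE 0.06, edgeR adjusted P 0.0006), where 42.8% of genes were called. With p53 TM RAD18 was at 28.3, 35.1 and 33.4 CPM, overlapping both pGFP and wild type p53. The log2 fold change against pGFP was −0.18 (SE 0.10, edgeR adjusted P 0.29) without pairing and −0.19 (SE 0.06, edgeR adjusted P 0.028) with the replicate block, where 21.7% of genes were called. Against wild type p53 it was 0.19 higher (SE 0.10, edgeR adjusted P 0.18) without pairing and 0.19 (SE 0.06, edgeR adjusted P 0.016) with the replicate block, where 37% of genes were called.

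POLI encodes polymerase iota, an error-prone inserter (ENSG00000101751.10, chr18:54269517-54321266, plus strand). At 24 h it was at 14.9, 14.5 and 13.5 CPM in pGFP, 11.2, 10.7 and 13.4 CPM with wild type p53 and 11.4, 12.3 and 12.1 CPM with p53 O6-meG. Replicate 3 of wild type p53 lay just below the lowest pGFP library and the others clearly lower. The log2 fold change was −0.29 with wild type p53 (SE 0.09, edgeR adjusted P 0.015) and −0.26 with p53 O6-meG (SE 0.09, edgeR adjusted P 0.032). The first was lost without wild type p53 replicate 2 (0.096) or pGFP replicate 1 (0.058), and the other without 1 of 4 libraries, up to 0.11 without pGFP replicate 1. With the replicate block they were −0.29 (SE 0.09, edgeR adjusted P 0.0073) and −0.26 (SE 0.09, edgeR adjusted P 0.017), where 48.4% and 42.8% of genes were called. With p53 TM POLI was at 12.5, 14.4 and 13.5 CPM, overlapping pGFP (log2 fold change −0.09, 95% interval −0.27 to 0.10). At 6 h it was 19.6, 19.8 and 20.9 CPM in pGFP and 17.9, 18.0 and 17.6 CPM with wild type p53, with no overlap but a log2 fold change of −0.17 that was not called (edgeR adjusted P 0.29).

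POLK encodes polymerase kappa, which bypasses bulky adducts in the minor groove (ENSG00000122008.15, chr5:75511845-75609991, plus strand). At 24 h it was at 27.2, 28.3 and 27.9 CPM in pGFP, 22.7, 23.8 and 25.4 CPM with wild type p53 and 30.1, 27.7 and 26.6 CPM with p53 TM. Wild type p53 lay below both other groups without overlap, and p53 TM overlapped pGFP. Against pGFP wild type p53 gave a log2 fold change of −0.21 (SE 0.07, edgeR adjusted P 0.024), and p53 TM stood 0.23 above wild type p53 (SE 0.07, edgeR adjusted P 0.026), the 1 member called in a comparison that called 21.2% of genes. Both calls were lost when some single libraries were left out. The first was lost without pGFP replicate 2 (0.069), pGFP replicate 3 (0.056) or wild type p53 replicate 2 (0.061), and the other in 4 fits, up to 0.11 without p53 TM replicate 1. With the replicate block they were −0.21 (SE 0.07, edgeR adjusted P 0.013) and 0.23 (SE 0.07, edgeR adjusted P 0.011), where 48.4% and 37% of genes were called. With p53 O6-meG POLK was at 25.4, 26.1 and 27.2 CPM and was not called (log2 fold change −0.08, edgeR adjusted P 0.44).

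Wild type p53 at 24 h called 4 of 6 members, where 35% of all genes were called, 1 higher (20.5% of all genes) and 3 lower (14.5%). p53 O6-meG called 3 of 6, where 29.5% of all genes were called, 1 higher (18.1%) and 2 lower (11.3%). The median log2 fold change over all tested genes was 0.01 in both comparisons. CERT1, a ceramide transporter gene that starts 293 bases from POLK on the opposite strand and shares 144 exonic bases with it, fell by 0.45 with wild type p53 at 24 h (edgeR adjusted P 2.0e-04). The long non-coding RNA ENSG00000277324, which shares 512 exonic bases with POLI, stayed below 1 CPM in every grouped library.

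**Figure D3:**
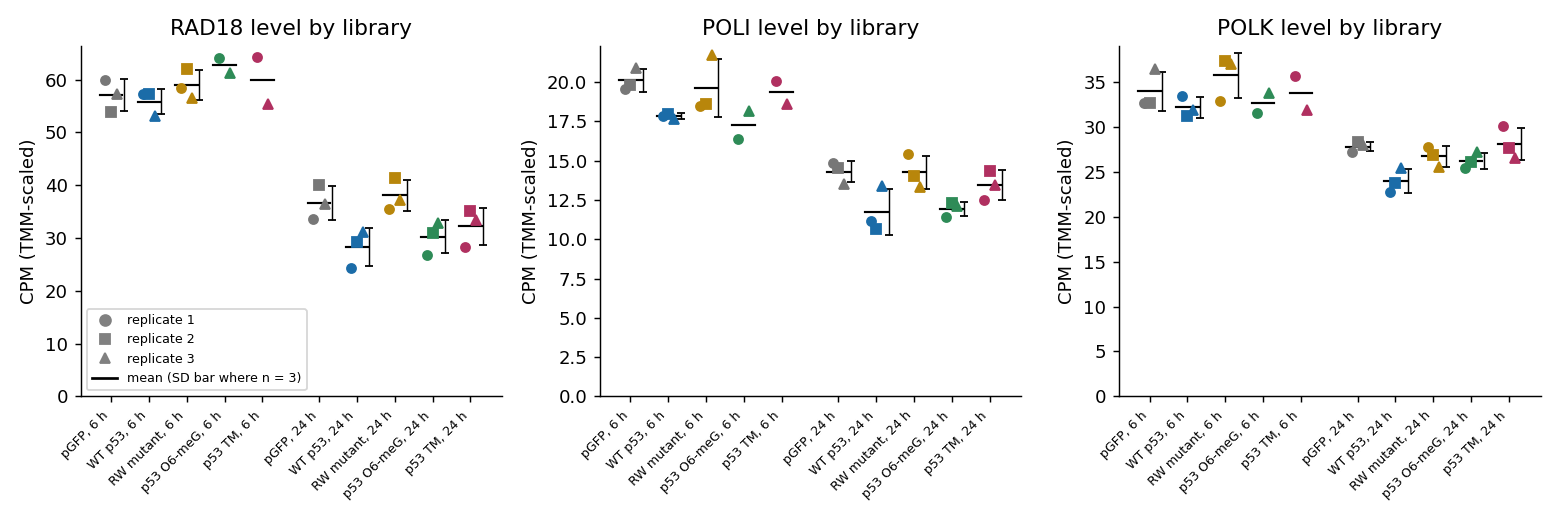
RAD18, POLI and POLK levels in every grouped library, in TMM-scaled CPM (vertical axes from 0), for the 5 vectors or treatments at 6 h and 24 h. Symbols give the replicate number, lines the mean and bars the SD where n = 3; RAD18 in pGFP lay at 53.9 to 59.9 CPM at 6 h and at 33.6 to 40.0 CPM at 24 h, and wild type p53 at 24 h lay lower still at 24.3 to 31.2 CPM.

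These 3 genes also ran together across the 28 grouped libraries, with Pearson r of 0.923 for POLK and POLI, 0.925 for POLI and RAD18 and 0.895 for POLK and RAD18. No other pair of members exceeded 0.492 in size (POLK and REV3L). The libraries share their time points, and the values are a description. Nearest to RAD18 were SUV39H2 (0.995), KLHL23 (0.990) and EXO1 (0.989), the last an exonuclease of mismatch repair and end resection. EXO1 fell by 1.04 between 6 h and 24 h in pGFP cells (edgeR adjusted P 5.2e-08) and by a further 0.56 with wild type p53 at 24 h (edgeR adjusted P 0.00017). Nearest to POLI were ZNF793 (0.967), NFATC2IP (0.966) and GPR63 (0.966), and nearest to POLK were ZNF101 (0.941), ZNF562 (0.940) and EBLN3P (0.938).

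REV1, the scaffold of the pathway and a deoxycytidyl transferase that gathers the other polymerases (ENSG00000135945.9, chr2:99400475-99490035, minus strand), lay between 39.8 and 52.9 CPM in all 28 grouped libraries. Wild type p53 overlapped pGFP at both times, and REV1 was called in no comparison, paired or not. Its log2 fold change with wild type p53 was 0.03 (95% interval −0.11 to 0.16) at 6 h and 0.01 (−0.12 to 0.14) at 24 h. Its closest patterns were weaker than for the other members, at 0.754 for ZNF544, 0.754 for EXOSC1 and 0.743 for CHEK2. EIF5B, on the opposite strand, shares 852 exonic bases with REV1. With the strand setting not given, reads from that overlap cannot be assigned with certainty.

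REV3L, the extending polymerase (ENSG00000009413.15, chr6:111299028-111483715, minus strand) was at 98.8, 109 and 108 CPM in pGFP at 6 h and at 123, 125 and 133 CPM with wild type p53. The groups did not overlap, but the log2 fold change of 0.27 (SE 0.09) missed the threshold (edgeR adjusted P 0.054). With p53 TM it was at 105 and 99.1 CPM, within the pGFP range. The difference of p53 TM from wild type p53 was −0.32 (SE 0.10, edgeR adjusted P 0.042), making REV3L the other member called there beside POLH. That call was lost without any 1 of the 5 libraries compared, up to 0.25 without p53 TM replicate 3, and with DESeq2 (0.06). At 24 h REV3L was between 91.0 and 106 CPM with wild type p53 and between 90.0 and 102 CPM in pGFP, which overlapped. TRAF3IP2-AS1, a long non-coding RNA that starts 256 bases away on the opposite strand and shares 117 exonic bases with REV3L, rose by 0.52 with wild type p53 at 6 h (edgeR adjusted P 0.0023) and by 0.46 at 24 h (edgeR adjusted P 0.0029). MFSD4B, a transporter gene that overlaps REV3L on the opposite strand without sharing exons, rose by 0.87 at 24 h (edgeR adjusted P 1.6e-05). The long non-coding RNA ENSG00000272356, also on the opposite strand, shares 576 exonic bases with REV3L. Reads from the shared bases cannot be assigned with certainty. Genes most like REV3L were ENSG00000279342 (0.856), KIF20B (0.847) and SH3BP2 (0.846).

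**Figure D4:**
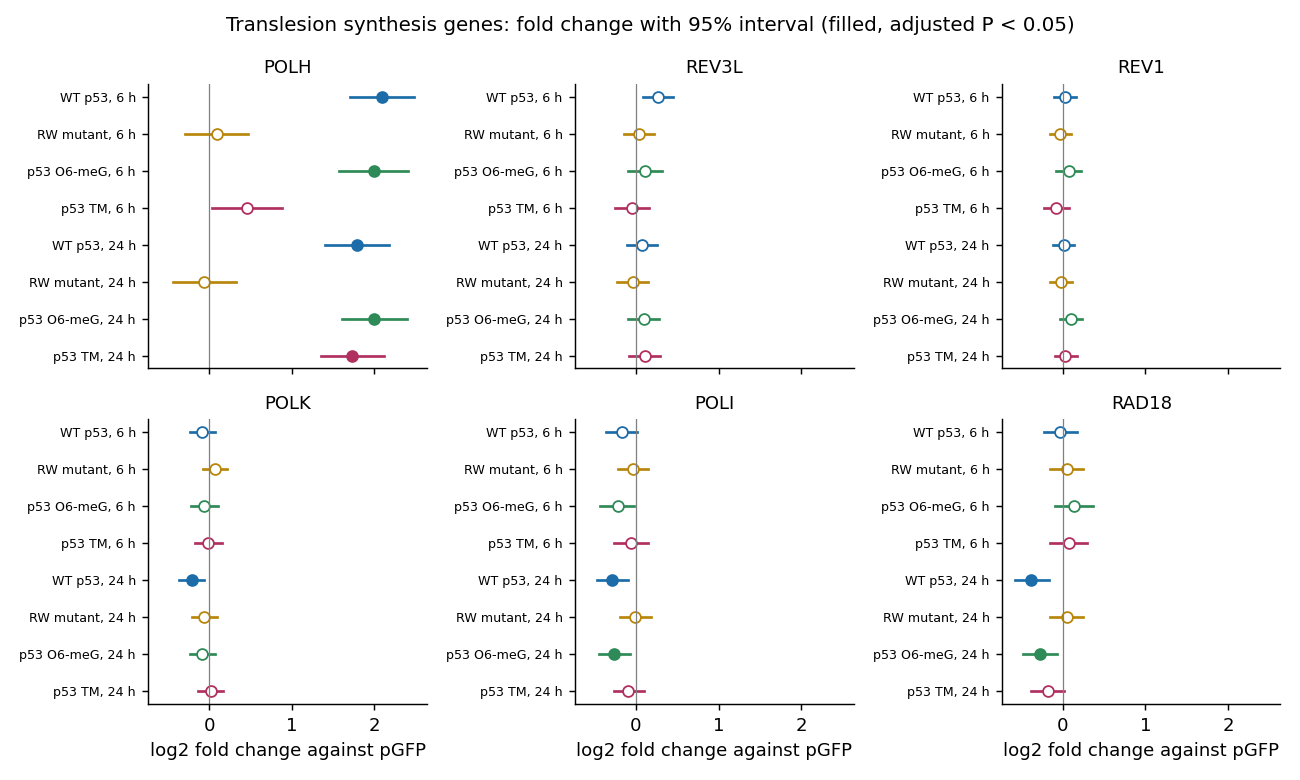
Log2 fold change against pGFP (horizontal axis) with its 95% interval for each of the 6 genes and 8 comparisons, from edgeR. Filled points have an adjusted P under 0.05; POLH reached 1.73 to 2.09 in 5 comparisons, and 0.46 with p53 TM at 6 h, while the other 5 genes ranged from −0.38 to 0.27.

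A list of 24 further genes of the pathway was read in the same comparisons without pairing, and all 24 were tested. With wild type p53 5 of 24 were called at 6 h, 3 higher and 2 lower, and 11 of 24 at 24 h, 3 higher and 8 lower. Over all tested genes 8.68% were called higher and 1.59% lower at 6 h, and 20.5% higher and 14.5% lower at 24 h. The median log2 fold change at 24 h was −0.11 over the list and 0.01 over all tested genes. The 3 that rose were PCNA, SPRTN and USP7. PCNA, the clamp that RAD18 modifies, was at 156, 190 and 171 CPM in pGFP at 24 h and at 308, 301 and 280 CPM with wild type p53. The groups lay far apart, and the log2 fold change was 0.78 (SE 0.10, edgeR adjusted P 4.1e-07) at 24 h and 0.57 (SE 0.10, edgeR adjusted P 0.00013) at 6 h. SPRTN, a protease that removes DNA-protein crosslinks and binds ubiquitinated PCNA, rose by 0.71 at 24 h (SE 0.10, edgeR adjusted P 5.4e-06). USP7, a deubiquitinase that acts on MDM2, p53 and RAD18, rose by 0.66 (SE 0.07, edgeR adjusted P 3.3e-08).

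Among those that fell at 24 h, POLD3, a subunit shared by polymerases delta and zeta, was at 43.6, 43.4 and 42.8 CPM in pGFP and at 26.4, 25.8 and 27.7 CPM with wild type p53. There was no overlap, and the log2 fold change was −0.70 (SE 0.07, edgeR adjusted P 3.8e-08). USP1, which removes ubiquitin from PCNA, fell by 0.50 and DTL, which targets proteins bound to PCNA for degradation, by 0.64. HLTF and SHPRH, ligases that extend the ubiquitin chain on PCNA, fell by 0.40 and 0.32. POLQ, the polymerase of microhomology-mediated end joining, fell by 0.50 and PRIMPOL, which reprimes beyond a lesion, by 0.61. All 6 had edgeR adjusted P values from 1.3e-05 to 0.00082.

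With p53 O6-meG at 24 h 11 of 24 were called, 3 higher and 8 lower, and with p53 TM 6 of 24, 3 higher and 3 lower. Over all genes p53 O6-meG called 18.1% higher and 11.3% lower, and p53 TM called 9% higher and 1.68% lower. PCNA, SPRTN and USP7 were the 3 higher with p53 TM as well, at 0.57, 0.37 and 0.26 on the log2 scale. These comparisons share the pGFP libraries. Between p53 TM and wild type p53 at 24 h 8 of 24 were called, 6 higher and 2 lower, where 9.29% of all genes were higher and 11.9% lower. The 2 lower were SPRTN (−0.33, SE 0.10, edgeR adjusted P 0.021) and USP7 (−0.39, SE 0.07, edgeR adjusted P 0.00021). POLD3 was 0.39 higher with p53 TM (SE 0.07, edgeR adjusted P 0.00048). RW mutant p53 called none of the 24 at either time by edgeR (0.00469% of all genes each time). In pGFP cells 16 of 24 changed between 6 h and 24 h, 2 higher and 14 lower, with a list median of −0.33, where 19% of all genes were higher and 22.3% lower.

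**Figure D5:**
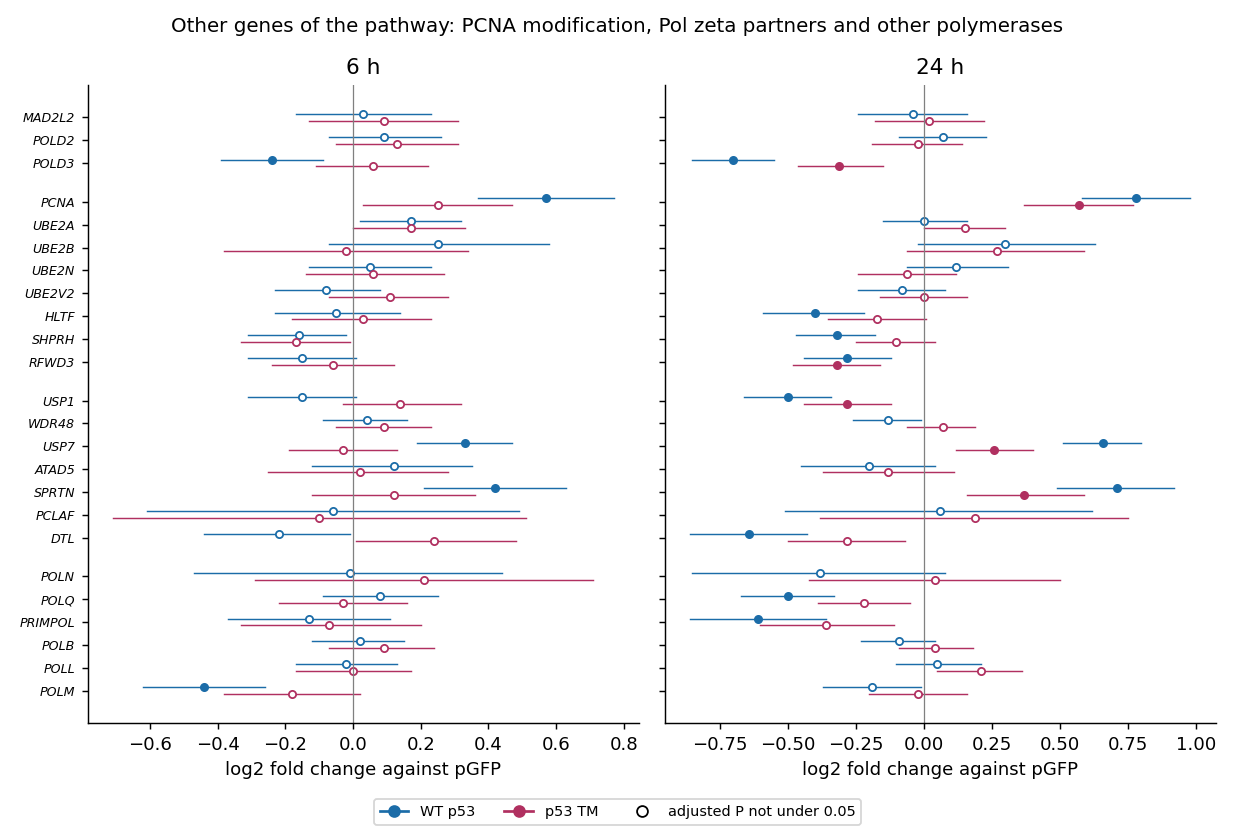
Log2 fold change against pGFP (horizontal axis) with its 95% interval for the 24 further genes of the pathway, at 6 h (left) and 24 h (right), for wild type p53 and p53 TM. Filled points have an edgeR adjusted P under 0.05; at 24 h wild type p53 called 11 genes and p53 TM called 6.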

How the data were processed

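RNA from sorted H1299 cells was measured in 30 libraries. The authors aligned single reads to hg38 with STAR 2.5.3a and counted them on GENCODE v27 genes with featureCounts of Subread 1.5.2 (per the submitters' processing notes and the study's methods), and deposited raw counts per gene without normalization. The strand setting is not given in the sources used here. A deposited table of normalized values was not used.

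Counts of 28 libraries were fitted in R 4.3.3 with edgeR 4.0.16: filterByExpr, TMM, 1 coefficient for each of the 10 groups and the quasi-likelihood test, with Benjamini-Hochberg adjustment over 21335 genes. A gene was called at an adjusted P under 0.05. Coordinates come from GENCODE v44 (455 of 39359 genes had no entry). DESeq2 1.42.0 served as an alternative. Other alternatives were DESeq2 size factors, 2 other filters, only the groups compared, 2 replicate blocks, 2 placements of the libraries with conflicting titles and each library left out.

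Members, lists and contrasts were chosen with earlier results of these data known. Named genes were the 6 members, those of a fixed list of 24 called with wild type p53 at either time (up to 10 by adjusted P), overlapping or nearby genes, and those with the most similar profiles.

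Replicate numbers come from the titles. Residuals of same-numbered libraries correlated above 0.1 in 30 of 30 pairs at 24 h (0.182 to 0.613) and in 5 of 9 at 6 h. The 6 h pairs had a median of 0.125, against −0.0489 between other numbers. Values come from the unpaired fit unless the replicate block or same-numbered libraries are named. Beside it, the block was read for some comparisons of the members at 24 h and some differences between the times, and at 6 h only as an alternative. It was not read for the list of 24 genes. Over 26 pairs within groups the chi-square per degree of freedom was 6.09 to 47.4, so no library was a duplicate of another in its group. Pairs across groups and the 2 libraries in no group were not compared. The fit was tested on simulated data with known changes in wild type p53 against pGFP at 24 h, in 50 genes for each size of change. It recovered 30 at 1.5-fold, 45 at 2-fold, 50 at 4-fold and 43 at 0.5-fold, and called 2 unchanged genes. Changes smaller than 1.5-fold, pairing by number and changes in the other comparisons were not simulated.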

Additional observations from a re-analysis of the deposited data

Results flagged for a closer look

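The effect of p53 TM on POLH differed between 6 h and 24 h in tests of the difference itself: by 1.27 on the log2 scale against pGFP, by 1.58 against wild type p53 and by 1.27 against p53 O6-meG, with the adjusted P values given above. These contrasts were added after the values had been seen and are listed because they passed the threshold. The first and the last lost their calls in some fits without 1 library. None was called with the conflicting titles placed by their parentheses. POLH was also raised over the 3 pGFP libraries (at most 50.6 CPM) in both libraries whose titles name 2 groups and which were placed in none. It was at 67.1 CPM where the title opens with p53 TM and at 199 CPM where it opens with p53 O6-meG. CDKN1A was at 50.2 CPM and 250 CPM in these libraries, in the same order. Groups held 2 or 3 libraries, too few for a search for single outlying libraries.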

How the results depend on the processing

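Over 1986 values of the 6 genes in alternative fits, 1914 stayed on their side of the threshold, 52 lost a call and 20 gained one; 0 called values turned direction, while 114 values that were called in neither fit changed sign; the cause of each change was not tested unless the setting itself removed libraries. POLH with wild type p53 and p53 O6-meG against pGFP at both times, and with p53 TM at 24 h, and RAD18 with wild type p53 at 24 h were called in all of them.
The number of members called moved as follows. p53 TM against wild type p53 at 6 h went from 2 to 1 (REV3L lost) with DESeq2 size factors, the DESeq2 Wald test, no filter or at least 10 counts in every library, and to 0 with conflicting titles placed by parentheses, as did p53 TM against p53 O6-meG at 6 h and the 3 time differences of p53 TM (each from 1 to 0). The time difference of p53 TM and p53 O6-meG also went to 0 with DESeq2 size factors, at least 10 counts or only the groups compared. Only the groups compared gave 3 members for wild type p53 at 6 h (POLI and REV3L gained), 2 at 24 h and 1 for p53 O6-meG at 24 h. p53 TM against wild type p53 at 24 h went to 0 with that setting, no filter, or 24 h replicate 1 of all groups left out, and p53 TM against p53 O6-meG at 24 h went to 1 (POLH) in the last.
The replicate block over all libraries, the block within time and placement by the first part of the title each gave 2 for wild type p53 at 6 h (REV3L gained, edgeR adjusted P 0.02, 0.0014 and 0.042). The block within time called 18.8% of all genes there, against 10.3% without it. RAD18 was gained (0 to 1) in the time difference of p53 O6-meG with both blocks, the DESeq2 Wald test, at least 10 counts and without 24 h replicate 1. The replicate block within time further gave 1 for p53 TM at 6 h (POLH, 0.42, edgeR adjusted P 0.0037), where 1.54% of all genes were called. At 24 h it gave 2 for p53 TM (21.7%), 2 against wild type p53 (37%) and 1 against p53 O6-meG (25.3%). It gave 2 for the time difference of wild type p53 (POLH and RAD18, 18.3%) and 2 for that of p53 TM and wild type p53 (POLH and REV3L, 7.86%). Without the block these shares were lower, at 0.202%, 10.7%, 21.2%, 10%, 6.51% and 1.45% in the same order. The block changed no other count by over 1.5 times. At 6 h pairing by number was weaker and was read in only 9 pairs of libraries, so values with the block there stand as alternatives. A block within time cannot compare pGFP between the times, so that value was not computed. The share of the POLH rise kept by p53 TM at 6 h went from 11.5% to 38.6% with placement by parentheses.
Leaving out 1 library gave 1 to 2 members for p53 O6-meG and 2 to 4 for wild type p53 against pGFP at 24 h, 0 to 2 for p53 TM against wild type p53 at 24 h and 1 at 6 h, and 0 to 1 for the time differences of p53 TM against pGFP and against p53 O6-meG. Where it moved a count, the DESeq2 test called 2660 of all genes (p53 TM against wild type p53 at 6 h) and 1843 (time difference of p53 O6-meG). For alternatives other than the DESeq2 test and the block within time, the share of all genes called was not kept. Their counts of members cannot be set beside it. With 2 or 3 libraries a group, a member that was not called may still differ within its 95% interval.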
